A study of Mus musculus with 56 samples.

Results

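The genes described here are 8 targets of the nuclear receptor PPAR-alpha that serve the oxidation and handling of fatty acids in liver: Cyp4a10, Cyp4a14, Acot1, Ehhadh, Cpt1a, Pdk4, Fgf21 and Plin2. They were taken by symbol, without regard to their values, from the 45513 genes in the count files, each symbol matched 1 Ensembl identifier, and all 8 were among the 14314 genes with enough reads to be tested. Liver mRNA was sequenced from 56 female APOE*3Leiden.CETP mice, 8 in each of 7 groups, in a study of 3 inhibitors of the BCR-ABL1 tyrosine kinase in which treatment lasted 16 weeks. The mice were 9 to 14 weeks of age before treatment, and so were older when the livers were taken. They carry the human APOE*3Leiden variant together with human APOC1, and human cholesteryl ester transfer protein under its own flanking regions. They have a human-like lipoprotein profile, so that every group, control included, is a model of dyslipidaemia. All groups ate a Western-type diet with 15% cacao butter and 0.15% cholesterol, with a run-in of 3 weeks.

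The control mice received the vehicle, 5% carboxymethyl cellulose, by gavage. Imatinib was given at 150 mg/kg in 2 gavages a day, nilotinib at 10 or 30 mg/kg and ponatinib at 3 or 10 mg/kg, each in 1 gavage a day. The mice on nilotinib, ponatinib or vehicle alone also had an added vehicle gavage. The last group drank water with 0.12 to 0.2% L-NAME, an inhibitor of nitric oxide synthase. Its length of treatment, how the 8 livers of a group were chosen, and the hour and feeding state at which the livers were taken, were not given in the sources used here. The comparisons ask how each compound changed liver gene expression relative to vehicle.

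PPAR-alpha is a receptor that binds fatty acids and fibrate drugs, pairs with RXR-alpha on DNA and switches on genes that burn fat, above all in the fasted liver. Its targets lie along the path of a fatty acid. Carnitine palmitoyltransferase 1A brings long chains into mitochondria, Ehhadh serves beta-oxidation in peroxisomes, and Cyp4a enzymes oxidise the omega end of the chain in the endoplasmic reticulum. Acot1 frees fatty acids from coenzyme A, Plin2 coats the droplets that store them, Pdk4 turns pyruvate away from oxidation, and the hormone Fgf21 leaves the liver. Several of them are also driven by other signals, among them glucocorticoids, glucagon, insulin and fatty acids themselves.

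The Cyp4a genes needed a check of sequence, because Cyp4a10 has near copies whose reads could be counted together with its own. The first 60 coding bases of each gene are shown from the GENCODE vM21 transcripts (GRCm38), with capitals where a base differs from that of Cyp4a10.
Cyp4a10: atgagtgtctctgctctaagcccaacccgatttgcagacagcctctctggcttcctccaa
Cyp4a31: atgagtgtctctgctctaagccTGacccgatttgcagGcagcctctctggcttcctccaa
Cyp4a32: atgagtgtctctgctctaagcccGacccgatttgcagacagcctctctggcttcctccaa
Cyp4a14: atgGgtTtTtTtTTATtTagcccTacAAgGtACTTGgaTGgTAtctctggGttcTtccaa
Over the whole coding sequence, Cyp4a31 was identical to Cyp4a10 at 96.6% of aligned bases and Cyp4a32 at 97.19%, while Cyp4a14 was identical at 75.1%. Of the 50-base windows of Cyp4a10 transcripts, 29.82% also occurred in a transcript of another gene, Cyp4a32 or Cyp4a31, and the counter set reads that aligned to several places apart from the counts of genes. For Acot1 the share was 19.25%, with Acot2, Acot5 and Acot3. For the other 6 genes it was at most 2.567%. The 8 genes lie on 6 chromosomes in GRCm38. Cyp4a10 (chr4:115518264-115533649, plus strand) and Cyp4a14 (chr4:115486200-115496142, minus strand) are neighbours, and Plin2 (chr4:86648386-86670060, minus strand) is on the same chromosome. The others are Acot1 (chr12:84009490-84018371, plus strand), Ehhadh (chr16:21761287-21787807, minus strand), Cpt1a (chr19:3322334-3385733, plus strand), Pdk4 (chr6:5483351-5496309, minus strand) and Fgf21 (chr7:45613886-45615490, minus strand).

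PPAR-alpha and RXR-alpha bind as a pair to 2 copies of a half-site, AGGTCA, spaced by 1 base. The whole element AGGTCANAGGTCA was searched on both strands of the RefSeq promoter windows (GRCm38.p6, 300 bases reaching 50 bases past the start) of the 6 genes in the table, allowing at most 2 mismatches. Only the window of Plin2 held such a match. It is printed as the 250 bases before the start, chr4:86670060-86670309 on the minus strand, with the match in capitals.
Plin2: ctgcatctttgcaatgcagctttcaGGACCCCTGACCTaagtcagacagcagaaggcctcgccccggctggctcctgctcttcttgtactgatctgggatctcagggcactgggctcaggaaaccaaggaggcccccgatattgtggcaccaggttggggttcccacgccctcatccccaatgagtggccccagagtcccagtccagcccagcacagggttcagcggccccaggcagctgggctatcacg
The match reads AGGTCAGGGGTCC on the strand opposite to the gene, has 2 mismatches and begins at base -225 from the start of transcription. Among all 32841 windows searched, 3.86% held a match this close. The nearest approach in the windows of Acot1, Ehhadh, Cpt1a, Pdk4 and Fgf21 had 4 mismatches in each. Cyp4a10 and Cyp4a14 are not in the table.

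Reads on genes ranged from 5342379 to 17996732 per mouse, apart from 1 L-NAME mouse with 97473341. The share of reads outside genes was taken over reads on genes, outside genes or ambiguous between genes, without those aligned to several places. It was lowest in the control mice (mean 7.97%, range 7.55 to 8.67%) and reached a mean of 11.0% with ponatinib 10 mg/kg. Relative to control, short genes were on average higher and long genes lower in every treated group, and the cause was not tested. With imatinib the median log2 fold change was 0.25 over 2738 genes with up to 2000 bp of exons, and -0.16 over 2288 genes above 8000 bp. The other treated groups ran the same way, from 0.10 to 0.27 for the short genes and from -0.06 to -0.13 for the long genes. The hepatocyte markers were abundant in every mouse, with a summed level of 67956 to 145544 CPM (counts per gene scaled to a common library size). Adipocyte markers were at or near 0, at most 5.80 CPM in sum, which bears on Plin2 and Cd36, both also expressed in fat. Since whole liver was sequenced, fewer cells of a type and less RNA per cell cannot be told apart.

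Levels are given below in CPM scaled by the TMM method, as the mean ± SD over the 8 mice of a group. Differences are log2 fold changes with their standard errors from edgeR's quasi-likelihood test fitted to all 56 mice, and a gene was called changed at a Benjamini-Hochberg adjusted p below 0.05 over all 14314 genes. Divided by the length of their exons, the 8 genes spanned a wide range in control liver. Cyp4a14 stood highest at 498 ± 183 CPM per kb, followed by Ehhadh at 276 ± 46.8, Cyp4a10 at 213 ± 60.8, Plin2 at 184 ± 27.2 and Cpt1a at 73.6 ± 20.6 CPM per kb. Pdk4, Acot1 and Fgf21 were low, at 7.39 ± 5.34, 6.72 ± 2.79 and 4.36 ± 5.32 CPM per kb, and these 3 neighbours did not differ beyond their spread.

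**Figure D1:**
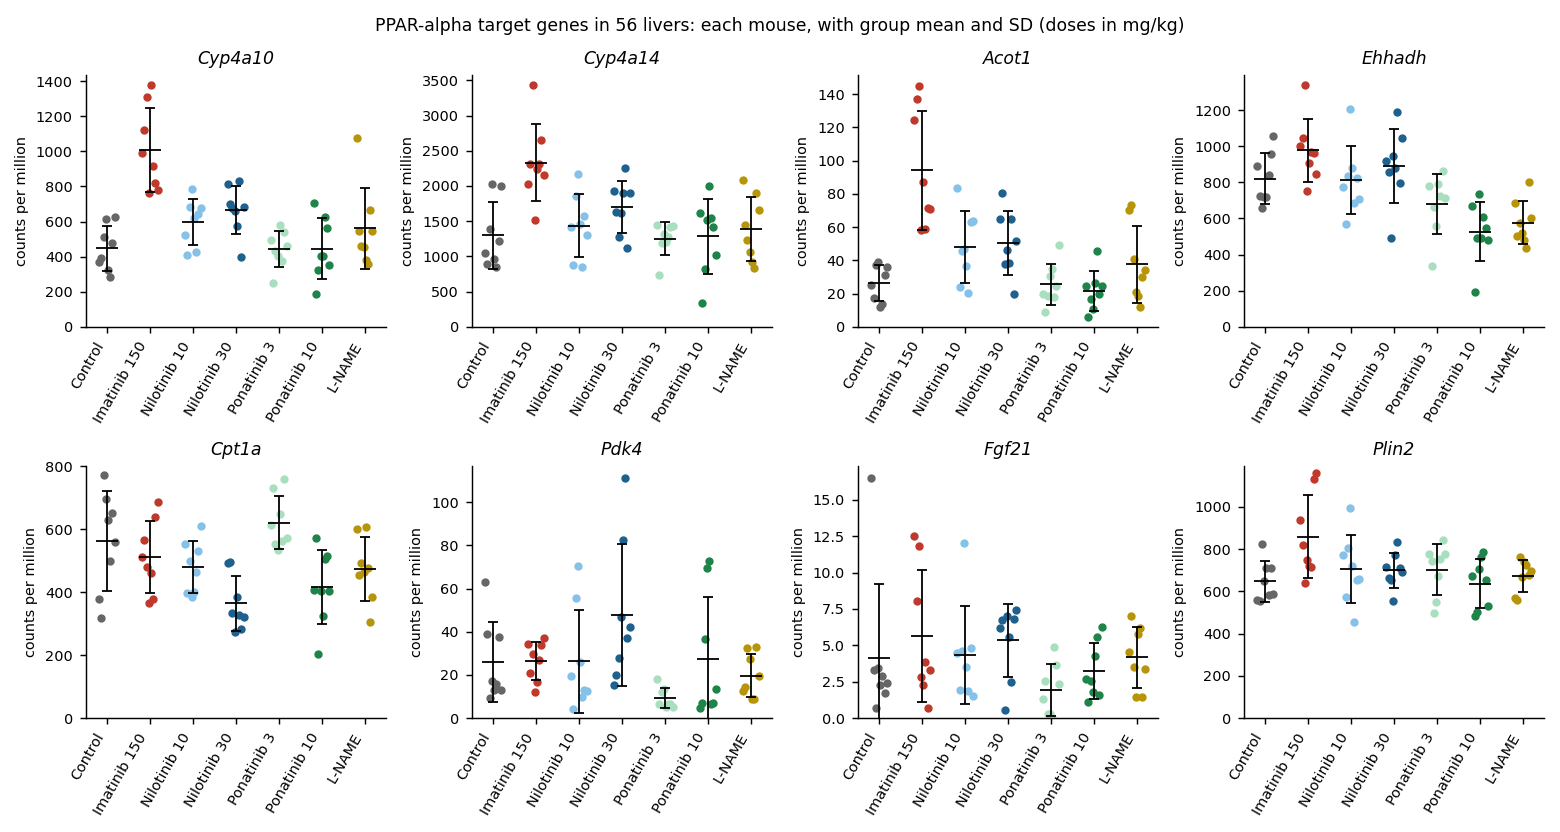
Level of each of the 8 genes in every mouse (vertical axis, CPM, from 0; horizontal axis, the 7 groups with doses in mg/kg). Each point is 1 mouse, the line is the group mean and the bars are 1 SD, not drawn below 0. All 8 imatinib mice lie above every control mouse for Cyp4a10 and Acot1, and 6 of 8 ponatinib 10 mg/kg mice lie below every control mouse for Ehhadh.

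Imatinib raised the 2 Cyp4a enzymes, Acot1 and Plin2, and no other treatment raised any of the 8 genes in this test. The 4 genes are 4 of 8, in a comparison where 10.3% of all tested genes were called and 5.69% were called higher. The other treatments each moved at most 1 gene, and in the downward direction. Cpt1a fell with nilotinib 30 mg/kg, where 5.77% of all genes were called and 3.43% were lower. Ehhadh fell with ponatinib 10 mg/kg, where 13.1% were called and 5.87% were lower, and with L-NAME, where 11.8% were called and 6.24% were lower. A single called gene of 8 is 12.5%, the smallest share above 0 that 8 genes can give, and it is read here as 1 gene and not as a result about the 8. No member was called with nilotinib 10 mg/kg (background 1.41%) or ponatinib 3 mg/kg (background 0.0419%) in edgeR, DESeq2 or limma. At an unadjusted p under 0.05, which 14.2% and 9.96% of all genes passed, 2 of the 8 were found in the former group and 1 in the latter. At an unadjusted p below 0.01, the count was 4 of 8 with imatinib (12.9% of all genes), 0 and 3 with nilotinib at 10 and 30 mg/kg (5.97% and 9.35%), 1 and 2 with ponatinib at 3 and 10 mg/kg (3.14% and 15%), and 1 with L-NAME (14%). The median log2 fold change of the 8 genes was 0.42 with imatinib against -0.02 over all genes, and 0.37 with nilotinib 30 mg/kg against 0.03. It was 0.08 with nilotinib 10 mg/kg, -0.05 with ponatinib 3 mg/kg, -0.15 with ponatinib 10 mg/kg and 0.03 with L-NAME, against medians between -0.01 and 0.02 over all genes.

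**Figure D2:**
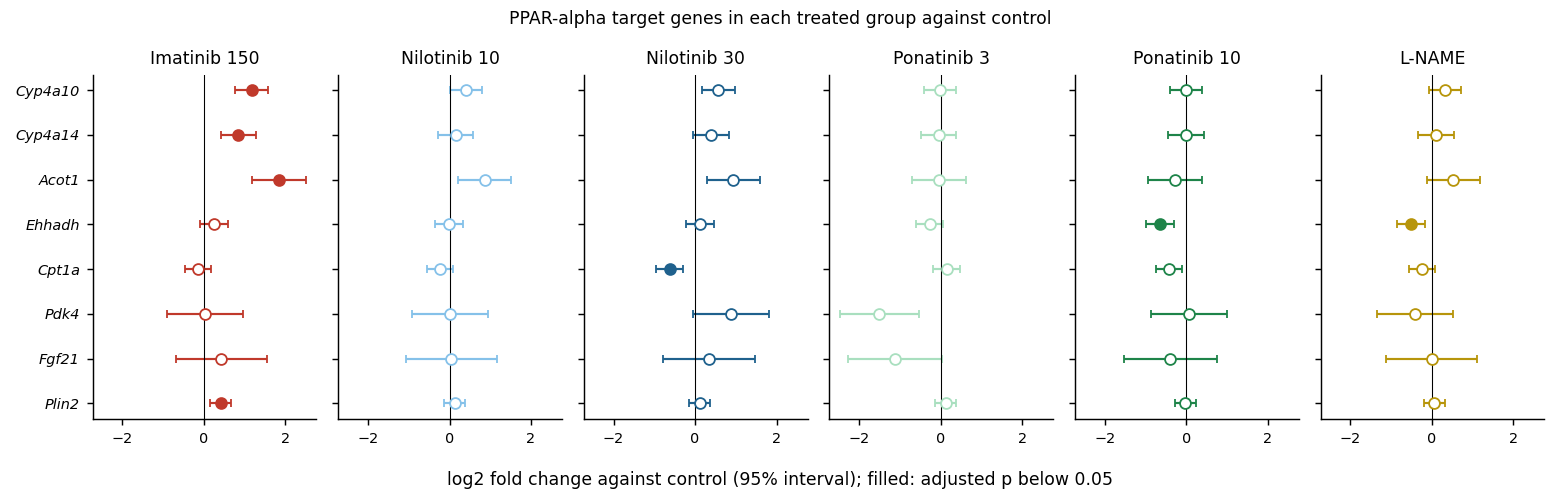
Log2 fold change of each gene against control (horizontal axis) in the 6 treated groups (panels, doses in mg/kg), with 95% intervals from the model over all mice. Filled points passed an adjusted p of 0.05: Cyp4a10, Cyp4a14, Acot1 and Plin2 with imatinib, Cpt1a with nilotinib 30, and Ehhadh with ponatinib 10 and with L-NAME.

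Cyp4a10, a fatty acid omega-hydroxylase and a classical marker of PPAR-alpha activity in rodent liver, was more than doubled by imatinib. In control mice it ran from 281 to 624 CPM with a median of 434, and in imatinib mice from 763 to 1379 with a median of 953. The groups did not overlap. The mean rose from 449 ± 128 to 1009.7 ± 239 CPM, a log2 fold change of 1.17 ± 0.20 or 2.25-fold (95% interval 1.70 to 2.97, edgeR adjusted p = 7.3e-05). The nilotinib groups lay between, at 595 ± 132 CPM with 10 mg/kg and 667 ± 136 CPM with 30 mg/kg, and 4 and 6 of their 8 mice were above every control. Neither passed the test (log2 fold changes 0.41 and 0.57, adjusted p = 0.33 and 0.074 in edgeR). At 30 mg/kg the adjusted p ran from 0.0173 to 0.317 over 9 other settings and passed in 3 of them. Ponatinib 3 mg/kg (442 ± 102 CPM), ponatinib 10 mg/kg (445 ± 173 CPM) and control were level within their spread. The interval for ponatinib 10 mg/kg was 0.75- to 1.31-fold. In the L-NAME group (560 ± 230 CPM), 1 mouse reached 1074 CPM and the next highest 668.

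The near copies behaved differently from each other. Cyp4a31 was low and rose with imatinib from 12.5 ± 3.20 to 34.4 ± 10.1 CPM (log2 fold change 1.46 ± 0.25, edgeR adjusted p = 7.3e-05). It also rose with nilotinib 30 mg/kg, to 22.4 ± 7.91 CPM (0.85 ± 0.25, adjusted p = 0.029). Cyp4a32 had a log2 fold change of 0.02 ± 0.28 with imatinib. With the reads of Cyp4a10, Cyp4a31 and Cyp4a32 added together, the imatinib difference was 1.15 on the log2 scale (adjusted p = 5.1e-05), close to that of Cyp4a10 alone. Cyp4a31 was low beside Cyp4a10 (449 CPM in control mice), so adding it could move the result little. Reads that aligned to several places are in neither value, so the sum cannot settle how reads are shared. How Cyp4a31 and Cyp4a32 share reads with Cyp4a10 leaves their own values uncertain.

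Cyp4a14, the neighbouring omega-hydroxylase, was the most abundant of the 8 genes per length and followed Cyp4a10 with a smaller change. Control mice ran from 850 to 2030 CPM with a median of 1133, and imatinib mice from 1520.4 to 3428 with a median of 2279, so that 7 of 8 were above every control. The mean rose from 1296 ± 477 to 2333 ± 547 CPM (log2 fold change 0.85 ± 0.22, 1.80-fold, 95% interval 1.33 to 2.44, edgeR adjusted p = 0.0076). The other groups ranged in mean from 1250.3 CPM with ponatinib 3 mg/kg to 1702 CPM with nilotinib 30 mg/kg, with SDs of 233 to 528 CPM, and none differed from control (adjusted p of 0.346 or more in edgeR). The lowest value of all, 336 CPM, came from the ponatinib 10 mg/kg mouse that was also lowest of the 56 mice for Cyp4a10, Acot1 and Ehhadh.

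Acot1, a cytosolic acyl-CoA thioesterase that is low in the fed rodent liver and rises with fasting or fibrates, had the largest change of the 8 genes. It ran from 11.8 to 38.7 CPM in control mice (median 28.0) and from 58.2 to 145 CPM with imatinib (median 79.5), without overlap. The mean rose from 26.3 ± 10.9 to 94.3 ± 35.8 CPM, a log2 fold change of 1.84 ± 0.33 or 3.59-fold (95% interval 2.26 to 5.69, edgeR adjusted p = 0.00017). Nilotinib gave 47.9 ± 21.5 CPM at 10 mg/kg and 50.5 ± 19.1 CPM at 30 mg/kg, with 5 of 8 mice above every control in each, but neither passed the test (0.86 ± 0.33 and 0.94 ± 0.33 on the log2 scale, adjusted p = 0.17 and 0.075 in edgeR). For 30 mg/kg the adjusted p ran from 0.0209 to 0.483 over 9 other settings and passed in 2. Ponatinib 3 mg/kg (25.5 ± 12.4 CPM), ponatinib 10 mg/kg (21.8 ± 12.0 CPM) and L-NAME (37.5 ± 23.1 CPM) overlapped with control. Added to its near copy Acot2, Acot1 rose by 1.42 on the log2 scale with imatinib (adjusted p = 0.0003). Acot2, the mitochondrial counterpart, was not called with imatinib on its own (0.34 ± 0.28) and fell with ponatinib 10 mg/kg from 17.0 ± 4.03 to 8.83 ± 3.35 CPM (-0.95 ± 0.29, adjusted p = 0.022), where 7 of 8 mice were below every control.

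Ehhadh, the bifunctional enzyme of peroxisomal beta-oxidation, was lower than control with ponatinib 10 mg/kg and with L-NAME. Control mice ran from 660.4 to 1059 CPM (median 782). With ponatinib 10 mg/kg the range was 190 to 736 (median 519.9), and 6 of 8 mice were below every control. The mean fell from 821 ± 139 to 527 ± 165 CPM (log2 fold change -0.64 ± 0.17, 0.64-fold, 95% interval 0.51 to 0.81, edgeR adjusted p = 0.0073). L-NAME mice ran from 436 to 804 CPM (median 547), again with 6 of 8 below every control, and their mean of 576 ± 120 CPM was lower than control (-0.51 ± 0.17, 0.70-fold, interval 0.55 to 0.89, adjusted p = 0.036). Ponatinib 3 mg/kg lay between, at 679 ± 165 CPM (-0.28 ± 0.17, adjusted p = 0.62). Imatinib (977 ± 174 CPM), nilotinib 30 mg/kg (891 ± 203 CPM) and nilotinib 10 mg/kg (811 ± 189 CPM) did not differ from control, and the interval for imatinib was 0.941- to 1.505-fold. No 50-base window of Ehhadh occurred in a transcript of another gene. The share of reads outside genes moved with these groups. With that share as a covariate the ponatinib 10 mg/kg difference was -0.62 (adjusted p = 0.080, range over the settings tried 0.000175 to 0.080) and the L-NAME difference -0.49 (adjusted p = 0.203, range 0.00757 to 0.203), so that both kept their size and lost the call. Without the L-NAME mouse of 97473341 reads the L-NAME adjusted p was 0.070.

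Cpt1a, the carnitine palmitoyltransferase that controls entry of long-chain fatty acids into mitochondria, was not raised by any treatment. Control mice ran from 316 to 773 CPM (median 594) and nilotinib 30 mg/kg mice from 274 to 496 (median 329.9), so that the groups overlapped and 2 of 8 were below every control. The mean was 562 ± 157 CPM in control and 364 ± 87.4 with nilotinib 30 mg/kg (log2 fold change -0.63 ± 0.16, 0.65-fold, 95% interval 0.52 to 0.81, edgeR adjusted p = 0.011). Ponatinib 10 mg/kg came next at 417 ± 117 CPM (-0.43 ± 0.16, adjusted p = 0.066) and had an adjusted p of 0.028 without its mouse 2. From high to low the other groups were ponatinib 3 mg/kg (621 ± 84.2), imatinib (511 ± 114), nilotinib 10 mg/kg (479 ± 83.4) and L-NAME (473 ± 101 CPM), and none of these differed from control. Cpt1a has the longest exons of the 8 genes, 7642 bp, and genes of 4000 to 8000 bp had a median log2 fold change of -0.04 with nilotinib 30 mg/kg. Its level was also related to the share of reads outside genes among mice of a group (Pearson r = -0.42, adjusted p = 0.027; Spearman rho = -0.36, adjusted p = 0.063; permutation within groups, 56 mice, adjusted over 8 relations). The sign was negative in 5 of 7 groups and positive in the control mice (r = 0.55) and with nilotinib 10 mg/kg (r = 0.17). Without the 2 mice with the most extreme Cpt1a the r was -0.29. With the share as a covariate the nilotinib 30 mg/kg difference was -0.41 (adjusted p = 0.259, range over the settings tried 0.000107 to 0.259).

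Pdk4, the kinase that shuts off pyruvate dehydrogenase and so spares glucose, varied widely within groups. Control mice alone ran from 9.43 to 62.9 CPM with a median of 16.4. Nilotinib 30 mg/kg mice ran from 15.2 to 111 (median 39.6), ponatinib 10 mg/kg mice from 4.56 to 72.6 (median 10.3) and ponatinib 3 mg/kg mice from 5.16 to 18.1 (median 6.55). In the last group 5 of 8 mice were below every control. No group passed the test. The largest differences were -1.51 ± 0.49 with ponatinib 3 mg/kg (unadjusted p = 0.0031, adjusted p = 0.25 in edgeR) and 0.88 ± 0.47 with nilotinib 30 mg/kg (adjusted p = 0.32). Its adjusted p ran from 0.00455 in limma with sample weights to 0.462 over 8 other settings and passed in that 1. The 95% interval for imatinib was 0.53- to 1.94-fold, so that a moderate change in either direction could not be seen. Of the other pyruvate dehydrogenase kinases and phosphatases, the phosphatase Pdp2 fell with nilotinib 30 mg/kg (-0.95 ± 0.26, adjusted p = 0.016), ponatinib 10 mg/kg (-0.88 ± 0.26, adjusted p = 0.014) and L-NAME (-0.92 ± 0.26, adjusted p = 0.0103).

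Fgf21, a fasting and stress hormone of the liver, was low and varied widely between mice. Counts per mouse were between 0 and 734, and levels between 0 and 16.5 CPM, with 1 ponatinib 3 mg/kg mouse at 0 of 7615014 reads, which allows up to 0.394 CPM by counting error (3 reads). Control mice had a median of 2.65 CPM, imatinib mice 3.57, nilotinib 30 mg/kg mice 6.46 and ponatinib 3 mg/kg mice 1.84. All groups overlapped, and no difference from control passed the test. The 95% interval of the fold change ran from 0.62 to 2.93 for imatinib and from 0.21 to 1.03 for ponatinib 3 mg/kg. Its co-receptor Klb (beta-Klotho) fell with L-NAME from 38.6 ± 9.99 to 20.3 ± 8.86 CPM (-0.93 ± 0.26, edgeR adjusted p = 0.013). Klb was also lower, short of the threshold, with nilotinib 10 and 30 mg/kg (-0.84 and -0.77, adjusted p = 0.083 and 0.069) and ponatinib 10 mg/kg (-0.67, 0.079). With imatinib and ponatinib 3 mg/kg its differences were -0.45 and 0.08. The FGF receptor gene Fgfr4 was called in no group, with log2 differences between -0.28 and 0.09. Of the other FGF receptor genes tested, Fgfr3 was higher with ponatinib 10 mg/kg (0.68 ± 0.15, edgeR adjusted p = 0.00095). Fgfr1 and Fgfr2 were called in no treated group against control.

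Plin2, the coat protein of hepatocyte lipid droplets, rose with imatinib by a smaller factor than the omega-hydroxylases. Control mice ran from 554 to 822 CPM (median 617) and imatinib mice from 642 to 1159 (median 783), and 3 of 8 were above every control. The mean rose from 647 ± 95.4 to 859 ± 197 CPM (log2 fold change 0.41 ± 0.13, 1.33-fold, 95% interval 1.11 to 1.59, edgeR adjusted p = 0.029). In the other groups the means lay between 637 and 705 CPM, and no interval reached above 1.30-fold. The droplet proteins Plin4, Plin5 and Cidec were not called with imatinib, and G0s2, which inhibits the lipase of droplets, rose (0.93 ± 0.25, adjusted p = 0.0092). The calls of Cyp4a10, Acot1, Cyp4a14 and Plin2 with imatinib held in each of the 8 or 9 other settings run, the covariate included.

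The treatments were also compared with each other, at doses that differ. Ponatinib 10 mg/kg was lower than imatinib for 4 of the 8 genes, where 1.08% of all genes were called and 0.72% were lower. The differences were -2.12 ± 0.34 for Acot1 (edgeR adjusted p = 5.5e-05), -1.18 ± 0.20 for Cyp4a10 (0.0002), -0.89 ± 0.17 for Ehhadh (0.0013) and -0.86 ± 0.22 for Cyp4a14 (0.029). Without mouse 2 of the ponatinib 10 mg/kg group the adjusted p for Cyp4a14 was 0.061 and the difference -0.72. The Cyp4a14 call was also lost in limma (0.0836) and when only these 2 groups were fitted (0.129), and it passed in 6 of 9 other settings with an adjusted p from 0.011 to 0.129. Against nilotinib 30 mg/kg (1.88% called, 0.957% lower), ponatinib 10 mg/kg was lower for Ehhadh (-0.76 ± 0.17, adjusted p = 0.0092) and Acot1 (-1.22 ± 0.33, adjusted p = 0.037). The second of these had an adjusted p of 0.068 without mouse 2. At the shared dose of 10 mg/kg, ponatinib was lower than nilotinib for Ehhadh (-0.62 ± 0.17, adjusted p = 0.034, 2.06% called and 1.03% lower), which became 0.0599 without mouse 2. For Acot1 the difference of -1.14 ± 0.33 missed the threshold at an adjusted p of 0.0502, and it passed in 7 of 10 other settings. Across genes, the Spearman rho between exon length and log2 fold change was 0.04 for ponatinib 10 mg/kg against imatinib, -0.03 against nilotinib 30 mg/kg and -0.13 against nilotinib 10 mg/kg, where it was -0.27 for imatinib against control.

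Imatinib and nilotinib 30 mg/kg, the groups with the highest Cyp4a10 and Acot1, were not told apart by any of the 8 genes in the edgeR fit to all mice or in DESeq2. An edgeR fit to these 2 groups alone called 2, Cyp4a10 and Acot1 (adjusted p = 0.0182 and 0.0263, against ranges of 0.0182 to 0.0834 and 0.0263 to 0.127 over the other settings), and limma with sample weights called 3, Acot1, Cpt1a and Pdk4. At an unadjusted p under 0.05, 5 differed (15.9% of all genes). The difference for Cyp4a10 was 0.60 ± 0.20 (1.51-fold higher with imatinib, 95% interval 1.15 to 2.00, adjusted p = 0.077) and for Acot1 0.90 ± 0.32 (1.87-fold, interval 1.19 to 2.93, adjusted p = 0.11). Over all genes, 3.59% were called in the edgeR fit to all mice. For the other fits, here and between doses below, no such share is given. Their counts show only how calls moved with the setting. Between the 2 doses of ponatinib no member was called in edgeR (background 1.39%), 2 in DESeq2 and 1 in limma, with 3 at an unadjusted p under 0.05 (14.4% of all genes). For 10 against 3 mg/kg, Cpt1a had a log2 difference of -0.58 ± 0.16 (adjusted p = 0.053) and Pdk4 one of 1.57 ± 0.49 (adjusted p = 0.089). Both passed in DESeq2, and both passed in edgeR without mouse 2 (adjusted p = 0.021 and 0.044). Between the 2 doses of nilotinib no member and no gene at all was called in edgeR (background 0%), with no member in DESeq2 or limma and 1, Cpt1a, at an unadjusted p under 0.05 (-0.40 ± 0.16, 5.67% of all genes). At an unadjusted p below 0.01, 5 of the 8 differed between ponatinib 10 mg/kg and imatinib (4.09% of all genes), 3 between ponatinib 10 and nilotinib 30 mg/kg (5.64%), 2 between ponatinib and nilotinib at 10 mg/kg (6.73%), 3 between imatinib and nilotinib 30 mg/kg (7.55%), 2 between the doses of ponatinib (5.78%) and 0 between those of nilotinib (1.32%).

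The other genes of the pathway were read from a list of 81 genes in 8 groups by role, of which 77 were tested. With imatinib 28 rose and 1 fell, where 5.69% of all genes rose and 4.58% fell. The median log2 fold change was 0.34 against -0.02 over all genes, and 67 of 77 were above 0. The part of gene length in this imatinib result was not tested. Nilotinib 30 mg/kg raised 4 and lowered 2 (2.34% and 3.43% of all genes), ponatinib 10 mg/kg raised 5 and lowered 7 (7.24% and 5.87%), and L-NAME raised 6 and lowered 7 (5.55% and 6.24%). Their medians were 0.01, 0.02 and 0.00. In the groups on 10 mg/kg of nilotinib or 3 mg/kg of ponatinib none was called in edgeR as fitted here (2 and 0 with RLE scaling). DESeq2 called 5 and 0 of the list, and 499 and 48 of all genes, while limma called 13 and 9 of the list, and 1240 and 571 of the 14314 genes. At an unadjusted p under 0.05 the list had 17 and 12 of 77, beside 14.2% and 9.96% of all genes. Set against imatinib, ponatinib 10 mg/kg was lower for 16 list genes and higher for none, and set against nilotinib 30 mg/kg, imatinib was higher for 13 and lower for none. Of all genes, 0.72% were lower and 0.356% higher in the first comparison, and 1.22% higher and 2.38% lower in the second.

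**Figure D3:**
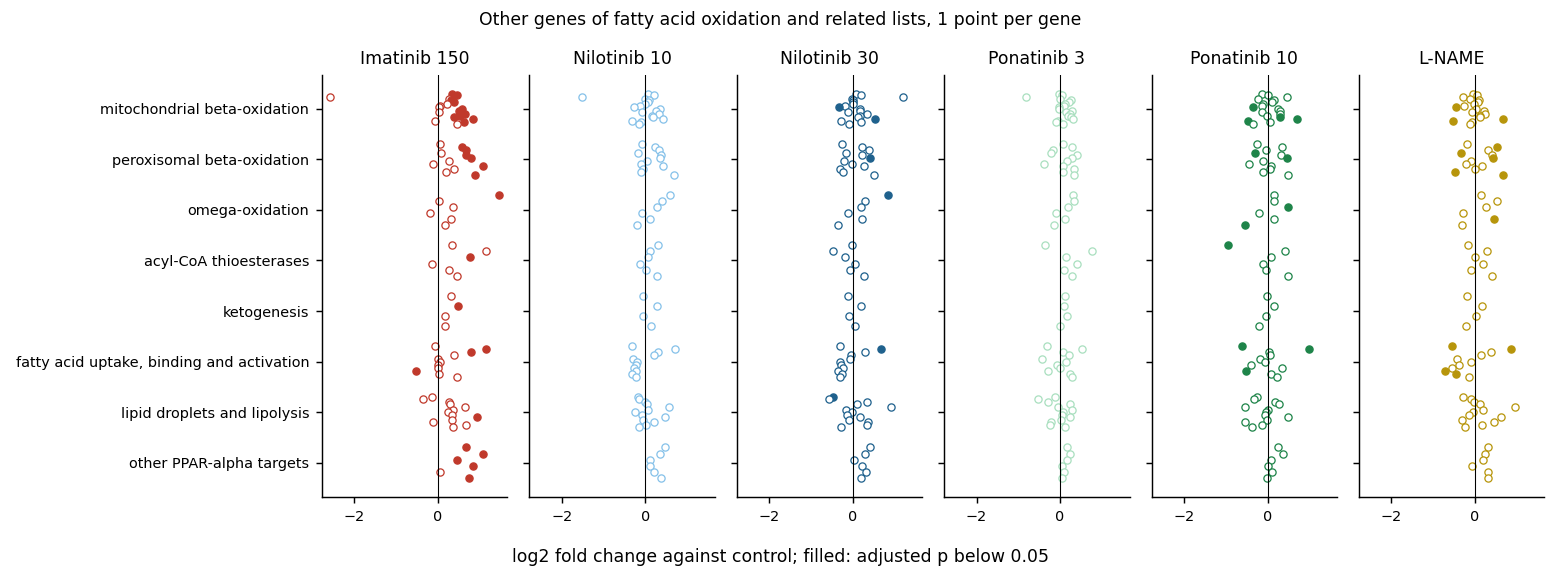
Log2 fold change against control (horizontal axis) of the 77 tested list genes outside the 8, 1 point per gene, arranged by role (rows) in the 6 treated groups (panels, doses in mg/kg). Filled points passed an adjusted p of 0.05: 29 with imatinib, 6 with nilotinib 30, 12 with ponatinib 10 and 13 with L-NAME.

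Imatinib raised 11 of 19 genes of mitochondrial beta-oxidation. Etfb, an electron carrier of the acyl-CoA dehydrogenases, rose from 301 ± 61.9 to 541 ± 106 CPM (0.84 ± 0.13, edgeR adjusted p = 1.5e-05). Eci1, which moves double bonds, rose by 0.66 ± 0.13 (0.00078), the thiolase Acaa2 by 0.50 ± 0.10 (0.0011) and the reductase Decr1 by 0.54 ± 0.11 (0.0011). In peroxisomal beta-oxidation 6 of 12 rose, among them Ech1 (0.79 ± 0.13, adjusted p = 2e-05) and Pex11a, a protein of peroxisome growth (1.07 ± 0.24, 0.0021), with Acot8 (0.88 ± 0.22) and Eci2 (0.67 ± 0.19). Of 6 other PPAR-alpha targets 5 rose: Vnn1, the pantetheinase, from 107 ± 38.5 to 228 ± 61.5 CPM (1.09 ± 0.20, adjusted p = 0.00025), Retsat (0.85 ± 0.19, 0.0024), Creb3l3, Txnip and Angptl4. Of 6 tested thioesterases Acot4 rose (0.77 ± 0.25, 0.035). Among 11 genes of uptake, binding and activation, Fabp1 (1.14 ± 0.21, 0.00027) and Slc27a1 (0.78 ± 0.20, 0.0061) rose and Acsl4 fell (-0.53 ± 0.16, 0.026).

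Some of these genes rose in several groups. Etfb rose with nilotinib 30 mg/kg (0.53 ± 0.13), ponatinib 10 mg/kg (0.70 ± 0.13) and L-NAME (0.67 ± 0.13), and Fabp1, the liver fatty acid binding protein, with the same groups (0.69 ± 0.21, 1.00 ± 0.21 and 0.86 ± 0.21), as did Ech1 (0.43 ± 0.13, 0.47 ± 0.13 and 0.44 ± 0.13). These groups were compared with the same 8 control mice. Etfb and Fabp1 are among the genes with up to 2000 bp of exons. The median log2 fold change of such genes was 0.25 to 0.27 in these groups and 0.25 with imatinib. The part of gene length in the results of Etfb and Fabp1, imatinib included, was not tested. Ponatinib 10 mg/kg lowered Cd36, the fatty acid translocase (-0.60 ± 0.13, edgeR adjusted p = 0.0013), Aldh3a2, a fatty aldehyde dehydrogenase (-0.53 ± 0.12, 0.0018), and Hsd17b4, the other bifunctional enzyme of peroxisomes (-0.30 ± 0.09, 0.019). It also lowered Hadha, of the mitochondrial trifunctional protein (-0.35 ± 0.10, 0.016), and Etfdh (-0.47 ± 0.14, 0.013). L-NAME lowered Cd36 (-0.56 ± 0.13, 0.0028), Hadha (-0.46 ± 0.10, 0.0017), Etfdh (-0.53 ± 0.14, 0.006) and Hsd17b4 (-0.34 ± 0.09, 0.0076). Of all genes, 5.87% were lower with ponatinib 10 mg/kg and 6.24% with L-NAME. The rising and falling list genes of these groups are therefore read gene by gene, and not as a result about the list. With the share of reads outside genes as a covariate, the count of called list genes was 3 with ponatinib 10 mg/kg and 1 with L-NAME. The share of all genes called in that fit is not given, so these counts are not set against a background. The list count with imatinib in that fit is not given here either.

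With imatinib the mRNA of the receptor did not run with that of the raised genes. Ppara was lower with imatinib (45.2 ± 29.3 to 25.9 ± 13.4 CPM, -0.80 ± 0.27, edgeR adjusted p = 0.048), in which Cyp4a10, Cyp4a14, Acot1 and Plin2 were higher. It was lower still with nilotinib 30 mg/kg (14.8 ± 4.19 CPM, -1.61 ± 0.28, 0.00026) and lower with L-NAME (24.5 ± 8.59 CPM, -0.89 ± 0.27, 0.023). Control mice spread from 13.2 to 113.5 CPM, so that every imatinib mouse lay within the control range and 3 of 8 nilotinib 30 mg/kg mice lay below it. Ponatinib 10 mg/kg gave -0.74 ± 0.27 with an adjusted p of 0.061. Called members fell in these other groups as well. Cpt1a was lower with nilotinib 30 mg/kg (-0.63), and Ehhadh with L-NAME (-0.51) and ponatinib 10 mg/kg (-0.64). Rxra, the partner of Ppara on DNA, was lower with nilotinib 30 mg/kg (505 ± 96.97 to 334 ± 60.6 CPM, -0.60 ± 0.13, 0.002), where 6 of 8 mice were below every control. The coactivator Ppargc1a was not called in any group, with log2 differences from -0.35 to 0.12.

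Among mice of the same treatment, 4 of the 8 genes rose and fell together. After the mean of its group was subtracted from each log2 CPM, Cyp4a10 and Cyp4a14 had a Pearson r of 0.83 and a Spearman rho of 0.79 over the 56 mice. The 4 genes Cyp4a10, Cyp4a14, Acot1 and Ehhadh gave 6 pairs with r between 0.51 and 0.83 and rho between 0.40 and 0.79, and all 6 were positive in each of the 7 groups. For Cyp4a10 with Acot1 r was 0.76, for Cyp4a14 with Ehhadh 0.77, and for Acot1 with Ehhadh 0.51 (0.40 without the 2 mice farthest in Acot1). Adjusted over the 28 pairs, the permutation p within groups was 5.6e-05 for 5 of the 6 pairs, from the smallest p that 100000 permutations can give, and 0.0021 for Acot1 with Ehhadh. For rho it was 5.6e-05 for the same 5 and 0.017. This co-variation did not reach Cpt1a, Pdk4 or Fgf21 in the same way.

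**Figure D4:**
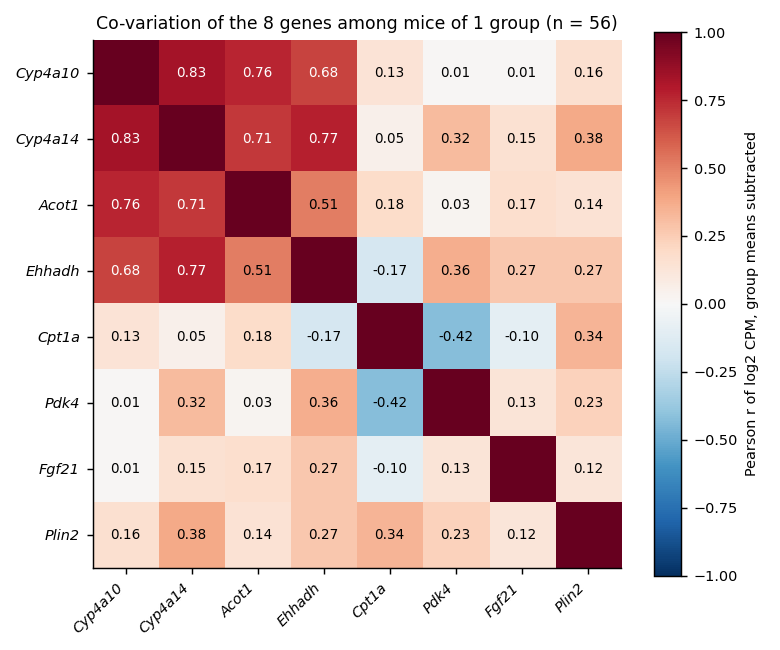
Pearson correlation of log2 CPM between each pair of the 8 genes (rows and columns) over 56 mice, after the mean of each group was subtracted, with the colour scale from -1 to 1. The 6 pairs among Cyp4a10, Cyp4a14, Acot1 and Ehhadh lie between 0.51 and 0.83, and Cpt1a with Pdk4 is at -0.42.

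Cpt1a and Pdk4 ran in opposite directions (r = -0.42, rho = -0.44, adjusted permutation p = 0.013 and 0.0076, r = -0.40 without the 2 mice farthest in Cpt1a). The sign was negative in 6 of 7 groups and positive in 1. Plin2 was related to Cyp4a14 (r = 0.38, rho = 0.37, adjusted permutation p = 0.021 and 0.028) and to Cpt1a (r = 0.34, rho = 0.33, adjusted permutation p = 0.034 and 0.0503). Both relations were positive in 5 of 7 groups only. Within groups, r with Cyp4a14 ran from -0.59 with L-NAME to 0.92 with nilotinib 10 mg/kg. With Cpt1a it ran from -0.13 with nilotinib 10 mg/kg to 0.84 in control mice. Fgf21 was related to none of the other 7 (r from -0.10 to 0.27, adjusted permutation p of 0.13 or more). The remaining relation past 0.05 in r was that of Ehhadh with Pdk4 (r = 0.36, adjusted permutation p = 0.049), and its rho of 0.30 was not (0.093).

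**Figure D5:**
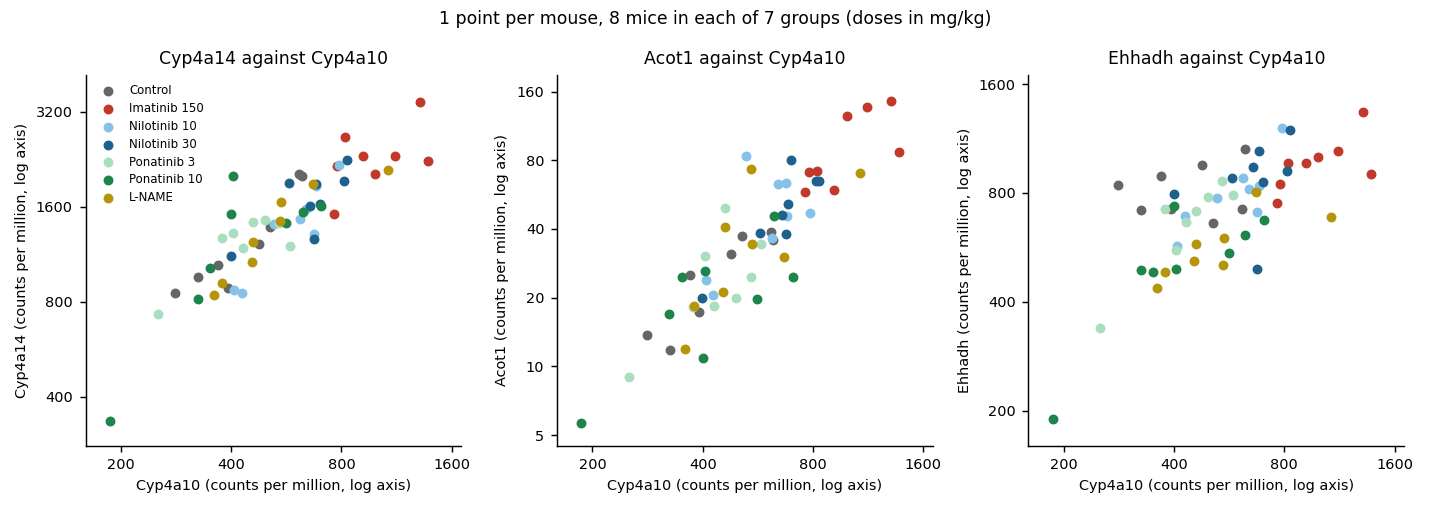
Cyp4a14, Acot1 and Ehhadh (vertical axes) against Cyp4a10 (horizontal axis) in CPM on log axes, 1 point per mouse, coloured by group (doses in mg/kg). The imatinib mice lie at the upper right for Cyp4a14 and Acot1, while ponatinib 10 and L-NAME mice lie low for Ehhadh at a given Cyp4a10; the lone point at the lower left of each panel is mouse 2 of the ponatinib 10 group.

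Across all tested genes, those most like each member by the same group-centred r over 56 mice were often other members. For Cyp4a10 they were Cyp4a14 (0.83), Acot1 (0.76) and Retsat (0.74), for Cyp4a14 Retsat (0.85), Cyp4a10 (0.83) and Ehhadh (0.77), and for Acot1 Eci1 (0.76) and Cyp4a10 (0.76). Ehhadh was most like Reln (0.78), Cyp4a14 (0.77) and Abcc3 (0.77). The other 4 members had no member among their 3 closest genes. Cpt1a was most like Rxra (0.84), Rab43 (0.81) and Aqp9 (0.79), Pdk4 like Chka (0.81), Abtb2 (0.78) and Arntl (0.77), Plin2 like Etfdh (0.63), Ptgr2 (0.60) and Elovl5 (0.60), and Fgf21 like Vps37c (0.55), Syvn1 (0.53) and Csad (0.53). These values describe the same 56 libraries and carry no test.

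Markers of other liver cells moved in several groups, imatinib among them. The summed level of 8 Kupffer cell markers ran from 469 to 966 CPM there and from 785 to 1579 CPM in control mice, and 3 of the 8 were called lower, Cd5l, Adgre1 and Csf1r. Of 7 leukocyte markers 2 were called lower, Ptprc and Itgax. Of 7 stellate cell markers only Ecm1 was called in these 2 groups, higher with imatinib (0.60 ± 0.18, edgeR adjusted p = 0.020) and with ponatinib 10 mg/kg (0.56 ± 0.18, 0.027). Lrat, Reln, Dcn and Hgf were lower without a call, by -0.23, -0.40, -0.40 and -0.92 with imatinib. With ponatinib 10 mg/kg they were at -0.43, -0.23, -0.25 and -1.09. The stellate cell sum was 617 ± 86.5 CPM in control mice, 620 ± 84.3 with imatinib and 632 ± 197 with ponatinib 10 mg/kg. The Kupffer cell marker Clec4f was called higher with nilotinib 30 mg/kg (0.64 ± 0.19, adjusted p = 0.028), ponatinib 10 mg/kg (0.61 ± 0.19, 0.022) and L-NAME (0.69 ± 0.19, 0.0088). Its difference was of similar size but not called with nilotinib 10 mg/kg (0.56 ± 0.19, 0.104) and ponatinib 3 mg/kg (0.57 ± 0.19, 0.26). Few genes of any kind were called in those 2 groups (1.41% and 0.0419% of all genes), and neither Ehhadh nor Cpt1a was among them. How Clec4f relates to these genes was not tested. With ponatinib 10 mg/kg Marco (2.32 ± 0.72, 0.023) and the B cell gene Ighm (1.07 ± 0.31, 0.013) were higher too, and the Kupffer cell sum ran from 442 to 2338 CPM. Ighm stood apart from other leukocyte markers of that group. Cd79a, also a B cell gene, was lower without a call (-1.85 ± 0.97, 0.22). So were Itgax (-1.46 ± 0.54, 0.063), Ccr2 (-1.09 ± 0.42, 0.075) and Ptprc (-0.37 ± 0.25, 0.37). Summed leukocyte markers came to 67.7 ± 32.2 CPM there, against 68.8 ± 17.6 CPM for vehicle. The summed hepatocyte markers were 93217 to 139134 CPM with imatinib and 76678 to 139532 CPM in control mice. Of the 6 markers in that sum, Cps1 was called lower with imatinib (-0.92, edgeR adjusted p = 0.0034). Apoa1 (0.66, 0.011) and Ttr (0.45, 0.031) were called higher, and Alb, Apob and Fgb were not called. With ponatinib 10 mg/kg Cps1 and Apob were called lower and Apoa1 and Ttr higher. The part of these cells in the changes of the 8 genes was not tested.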

How the data were processed

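Liver poly(A) mRNA was sequenced on an Illumina NextSeq instrument from 56 mice, with a library kit that does not mark strand. The authors aligned reads to GRCm38 with TopHat2 2.0.14 and Bowtie2 2.1.0, used SAMtools 0.1.18, and counted reads per gene with HTSeq 0.6.1p1. The deposited values are raw counts per gene, 1 file per mouse. The 5 tally rows that name no gene were left out of library sizes and tests. The largest but for repeat alignments was reads outside genes. It held 7.55 to 16.75% per mouse of the reads on genes, outside genes or ambiguous between genes. Symbols came from GENCODE vM21, which matched 44585 of 45513 identifiers.

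Genes with too few reads were removed with filterByExpr, libraries were scaled by TMM, and edgeR 4.0.16 (R 4.3.3) quasi-likelihood tests were fitted to all 7 groups without covariates. CPM values are the same counts on TMM-scaled library sizes. The authors' own threshold was an unadjusted p of 0.01 and was run as an alternative. The other alternatives were RLE scaling, no filter, the fit without the L-NAME mice, a fit of only the groups compared, the share of reads outside genes as covariate, limma 3.58.1 voom with quality weights and DESeq2 1.42.0. Summed paralogues were run as well. Leaving out the deepest library or mouse 2 of the ponatinib 10 mg/kg group was added after the data were seen. Correlations used log2 CPM less the group mean, with 100000 permutations within groups (scipy 1.17.1). The edgeR test was tested on simulated data for 1 comparison, imatinib against control.

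The 8 genes, the lists and the tests were chosen with earlier results of these data known. The text names the 8 genes, up to 4 called genes per list with the smallest adjusted p, the 3 genes most alike each member, and Ppara, Rxra, Ppargc1a, Klb and Fgfr4. Other list genes it names were chosen after their values were seen. Some genes that this rule would name are not reported here. Replicate numbers were given in accession order. Counts of any 2 mice of a group differed by more than sampling noise (lowest chi-square per degree of freedom 10.8 over 196 pairs). Nothing in the labels ties p-values to more than the spread between these mice.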

Additional observations from a re-analysis of the deposited data

Results flagged for a closer look

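In 5 of the 56 sets of 8 mice (8 genes in 7 groups), 1 mouse stood far from the others by Dixon's test, which chance alone gives in about 1 of 20 sets. For Cyp4a10, L-NAME mouse 1 reached 1073.63 CPM, with the next highest of its group at 668.288. For Cyp4a14, ponatinib 3 mg/kg mouse 2 was at 731.103 CPM, with the next lowest at 1183.5. For Ehhadh, ponatinib 10 mg/kg mouse 2 was at 189.948 CPM, with the next lowest at 482.806. For Fgf21, control mouse 1 was at 16.4739 CPM and nilotinib 10 mg/kg mouse 4 at 12.0617 CPM, where the next highest of their groups were at 3.4343 and 4.7881.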

How the results depend on the processing

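Of 552 log2 fold changes of the 8 genes recomputed under other settings, 511 kept their direction and their side of the threshold, 13 lost the call, 28 gained one, and no called value changed direction. Of 65 gene and comparison pairs, 11 changed sign in some setting without passing the test. The 4 calls with imatinib against control held throughout.
The share of reads outside genes as covariate left 0 of the 8 genes called with nilotinib 30 mg/kg, ponatinib 10 mg/kg and L-NAME, and 0, 3 and 1 list genes. For most other settings, the share of all genes called is not given, here or above. The exceptions are the unadjusted p, and limma and DESeq2 with nilotinib 10 and ponatinib 3 mg/kg. The counts without a share show only how calls moved with the setting, and are not results about the 8 genes or the list. With limma voom the counts of the 8 were 4 with nilotinib 30 mg/kg, 2 with ponatinib 10 mg/kg, 1 between the ponatinib doses, 4 for ponatinib 10 against nilotinib 30 mg/kg and 3 for imatinib against nilotinib 30 mg/kg, and those of the list were 13, 16, 9, 23 and 21 with nilotinib 10 and 30, ponatinib 3 and 10 mg/kg and L-NAME. DESeq2 called 2 with nilotinib 30 mg/kg, 2 between the ponatinib doses and 2 for ponatinib against nilotinib at 10 mg/kg, and 5 list genes with nilotinib 10 mg/kg. An unadjusted p below 0.01 gave 3 with nilotinib 30 mg/kg, 1 with ponatinib 3 mg/kg, 2 with ponatinib 10 mg/kg, 2 between its doses, 2 for ponatinib against nilotinib at 10 mg/kg and 3 for imatinib against nilotinib 30 mg/kg, and 5 and 3 list genes with nilotinib 10 and ponatinib 3 mg/kg. Fitting only the groups compared gave 3 with nilotinib 30 mg/kg, 0 for ponatinib 10 against nilotinib 10 and 30 mg/kg and 2 for imatinib against nilotinib 30 mg/kg. For ponatinib against nilotinib at 10 mg/kg, 2 were called with RLE scaling, without a filter, without the L-NAME mice and without the deepest library. RLE scaling called 2 list genes with nilotinib 10 mg/kg. Without the deepest library 0 were called with L-NAME.
Without ponatinib 10 mg/kg mouse 2, 2 were called against control, 2 between the ponatinib doses, 0 against nilotinib 10 mg/kg and 1 against nilotinib 30 mg/kg. Apart from the settings that test fewer mice, the cause was not tested. No paired analysis was possible because the labels give the mice no shared replicate numbers. Fgf21 had 0 to 734 reads per mouse, the highest in the library of 97473341 reads, and a within-group coefficient of variation of 46.7 to 122%.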
